A study of Mus musculus with 17 samples.

Results

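The 8 genes described here make, remove, transport or sense adenosine: Nt5e, Adk, Ada, Adora1, Adora2a, Adora3, Slc29a1 and Slc29a2. They were chosen by gene symbol, by their known roles, out of 55450 genes listed for each library, and all 8 were among the 17615 genes that had enough reads to be tested. Gene expression was measured by RNA-seq of polyadenylated RNA from the hippocampus of adult mice, with 17 libraries in 3 groups. Sham mice without epilepsy that carried the control guide (Ctrl-dCas9A) gave 5 libraries, called control sgLacZ here. Mice with epilepsy gave 6 libraries with the control guide (epileptic sgLacZ, or Ctrl-dCas9A) and 6 with the Kcna1 guide (epileptic sgKcna1, or Kcna1-dCas9A), and had received kainic acid in the right amygdala, which caused status epilepticus and later spontaneous seizures. Animals of all groups carried AAV9 vectors for CRISPRa, in which a dCas9-VP64 activator that does not cut DNA is switched on by doxycycline food, with its switch driven by a Camk2a promoter that favours excitatory neurons. The guide sgLacZ has no target in the mouse and is the control guide, whereas sgKcna1 is aimed at the promoter of the potassium channel gene Kcna1. The vectors were injected into the right ventral hippocampus, so part of the tissue may not carry them, and kainic acid animals entered the study only if they had seizures every week. The labels do not say whether each sample is a separate animal, so the p-values measure the spread between these samples.

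Adenosine is a brake on neuronal firing. It builds up outside cells when ATP is released and broken down, and the A1 receptor then lowers transmitter release and opens potassium channels. Adenosine kinase, found mainly in astrocytes of the adult brain, clears adenosine by turning it into AMP inside the cell, and equilibrative transporters let adenosine follow its gradient across the membrane. Overproduction of adenosine kinase in scarred epileptic tissue, with a loss of adenosine, is an established idea about how seizures persist.

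Adk has 2 annotated starts, and a gene-level count adds the transcripts from both. The 250 bases before each of these starts are shown because they differ in composition although the gene-level counts cannot tell their products apart. The stretches before the outermost start of Adora1 and the start of Adora3 are shown because these receptors stand at opposite ends of the receptor levels. Sequences are from RefSeq on GRCm38.p6, written 5′ to 3′ on the strand of the gene, with each GC box (GGGCGG on either strand, including overlapping matches) in capitals.
Adk, outer start, chr14:21052324-21052573, plus strand: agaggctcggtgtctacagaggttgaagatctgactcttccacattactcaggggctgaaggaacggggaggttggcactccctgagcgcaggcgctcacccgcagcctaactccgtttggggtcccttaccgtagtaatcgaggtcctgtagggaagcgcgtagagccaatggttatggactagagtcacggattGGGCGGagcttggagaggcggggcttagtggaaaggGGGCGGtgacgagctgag
Adk, inner start, chr14:21075902-21076151, plus strand: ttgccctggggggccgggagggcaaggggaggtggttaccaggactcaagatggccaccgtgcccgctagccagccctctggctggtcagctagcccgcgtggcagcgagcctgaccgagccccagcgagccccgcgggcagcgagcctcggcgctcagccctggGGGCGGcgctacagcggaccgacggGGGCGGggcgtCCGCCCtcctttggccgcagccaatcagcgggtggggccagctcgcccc
Adora1, outermost start, chr1:134235458-134235707, minus strand: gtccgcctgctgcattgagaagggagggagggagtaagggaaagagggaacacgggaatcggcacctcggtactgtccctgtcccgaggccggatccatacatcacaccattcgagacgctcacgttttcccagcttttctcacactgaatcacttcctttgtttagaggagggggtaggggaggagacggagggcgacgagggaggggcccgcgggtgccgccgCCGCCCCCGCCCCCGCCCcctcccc
Adora3, chr3:105904171-105904420, plus strand: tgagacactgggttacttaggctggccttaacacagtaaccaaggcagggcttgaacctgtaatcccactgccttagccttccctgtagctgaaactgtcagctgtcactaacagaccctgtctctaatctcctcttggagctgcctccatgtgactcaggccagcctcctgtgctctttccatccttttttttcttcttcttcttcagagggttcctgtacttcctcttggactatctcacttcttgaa
The inner start of Adk had 75.2% G and C with 24 CpG pairs, and the outer start had 58.8% with 15. The Adora1 stretch had 64.4% with 19 CpG pairs. The Adora3 stretch had 48.8% with none, against a median of 52.4% and 6 CpG pairs over 32817 promoters of the same length. Entries were found for 7 of the 8 genes, with 16 starts between them. Slc29a1 had the most of these starts, some close together, so the 16 are not independent of each other. A GC box was present before 9 of the 16 starts, against 32.7% of all promoters. CCAAT, on either strand, was present before 4 of the 16, against 33.8%, and TATAAA before 0 of the 16, against 12.4%. These matches describe letters only.

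Between 11839240 and 28311328 reads per library fell in genes. By these totals, 3 reads, taken as the floor of detection, were worth 0.106 to 0.253 CPM (the count of a gene scaled by the total of its library). The CPM of genes given here were also divided by a factor per library (TMM). It ran from 0.906 in epileptic sgKcna1 replicate 12 to 1.06 in epileptic sgLacZ replicate 7. Unmapped reads ranged from 11.0% in epileptic sgLacZ replicate 4 to 41.5% in epileptic sgKcna1 replicate 12, and these 2 libraries stand apart in several results. All 10 of 10 markers of hippocampal principal neurons had reads in every library. Kcna1, the gene aimed at, had 35.1 ± 6.71 CPM (SD, n = 5) in control sgLacZ, 30.1 ± 14.5 (n = 6) in epileptic sgLacZ and 38.2 ± 46.5 (n = 6) in the libraries labelled epileptic sgKcna1, with medians of 34.6, 27.7 and 19.1. The highest value of the last group, 132 CPM, was that of replicate 12. The other 5 libraries labelled sgKcna1 did not exceed the range of the sgLacZ libraries. Against epileptic sgLacZ the log2 fold change was 0.32 ± 0.47 (SE, edgeR adjusted p = 0.706). By qPCR the study found more Kcna1 in injected than in contralateral hippocampi of treated mice. It saw no clear rise by RNA-seq, which it proposes may reflect few reads. By the counts of Xist and Y-linked genes, females numbered 2 of 5, 4 of 6 and 2 of 6, and 6 of the 17 libraries held both kinds of read above 1 CPM.

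None of the 8 adenosine genes passed the test in any of the 3 comparisons. In epileptic sgLacZ against control sgLacZ, 0 of 8 passed edgeR's quasi-likelihood test at an adjusted p of 0.05, and 0 of 8 had an unadjusted p under 0.05, while over all genes 11.0% passed the first threshold and 34.7% the second. DESeq2 and limma also called 0 of 8. In epileptic sgKcna1 against epileptic sgLacZ, 0 of 8 passed with either threshold, where 0% of all genes passed the adjusted and 19.2% the unadjusted one. In epileptic sgKcna1 against control sgLacZ, 0 of 8 passed with either threshold again, where the shares of all genes were 0% and 6.77%. The CPM values of the groups overlapped for all 8 genes in each comparison, whereas they did not for 4.39%, 0.483% and 1.14% of all genes, in the same order. In each comparison 5 genes were higher and 3 lower, and the median size of their log2 fold changes was 0.12, 0.06 and 0.09, against 0.31, 0.23 and 0.16 over all genes tested. The 3 comparisons share libraries and are not independent of each other.

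**Figure D1:**
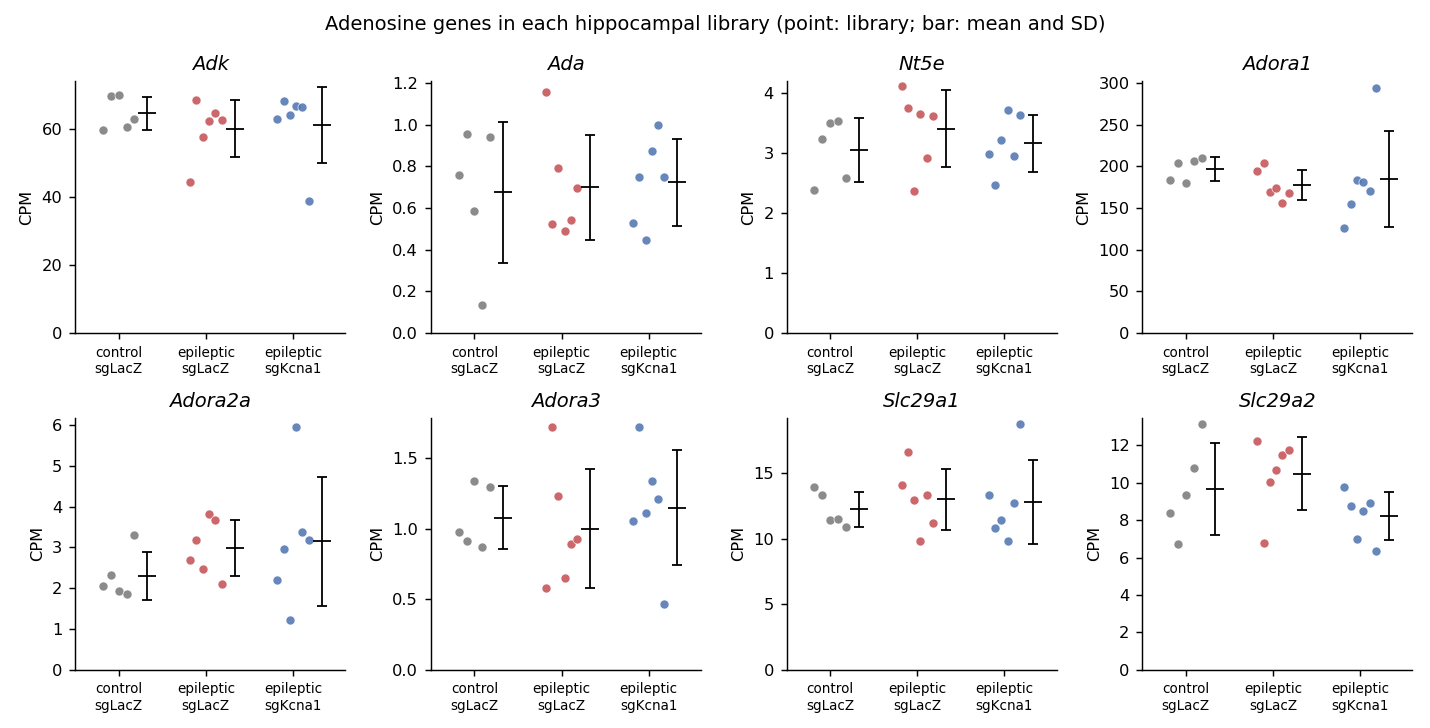
CPM of each adenosine gene (vertical axis, linear from 0, scale differs between panels) in the control sgLacZ (n = 5), epileptic sgLacZ (n = 6) and epileptic sgKcna1 (n = 6) libraries, with 1 point per library and the mean and SD beside them. The groups overlap for every gene, and 1 epileptic sgKcna1 library, replicate 12, is lowest for Adk (38.7 CPM) and highest for Adora1 (294 CPM).

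Nt5e (ENSMUSG00000032420, chr9:88327609-88372089) encodes CD73, the membrane enzyme that makes adenosine from AMP outside the cell. Its CPM was 2.38, 3.25, 3.51, 3.53 and 2.59 in the control sgLacZ libraries. In epileptic sgLacZ the lowest, median and highest values were 2.37, 3.64 and 4.12, and in epileptic sgKcna1 they were 2.46, 3.10 and 3.73. The 3 groups covered nearly the same range. The log2 fold change was 0.16 ± 0.19 (SE) for epileptic sgLacZ against control sgLacZ (adjusted p = 0.569), -0.11 ± 0.18 for epileptic sgKcna1 against epileptic sgLacZ (adjusted p = 0.731), and 0.05 ± 0.19 when epileptic sgKcna1 was set against control sgLacZ (adjusted p = 0.964). The 95% interval of the first ran from -15.0% to 46.7%. Libraries held 39 to 121 reads of Nt5e, and counting error alone gives a coefficient of variation of 12.5%, against 16.8% over the 17 libraries.

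Adk (ENSMUSG00000039197, chr14:21052574-21448569), adenosine kinase, had the tightest intervals of the 8 genes. The control sgLacZ libraries had 59.5, 69.7, 69.9, 60.6 and 62.9 CPM. Epileptic sgLacZ libraries ran from 44.5 through a median of 62.5 to 68.3 CPM, and epileptic sgKcna1 libraries from 38.7 through 65.3 to 68.2 CPM. Apart from epileptic sgLacZ replicate 4 and epileptic sgKcna1 replicate 12, at the low end, all libraries lay between 57.5 and 69.9 CPM. The log2 fold change was -0.11 ± 0.13 in epileptic sgLacZ against control sgLacZ (adjusted p = 0.593), and its 95% interval ran from -23.2% to 12.6%. A log2 change of 0.41 (1.33-fold), larger than the interval holds in either direction, would have been needed to pass the threshold with this spread. For epileptic sgKcna1 against epileptic sgLacZ the log2 fold change was 0.03 ± 0.13 (adjusted p = 0.904), and against control sgLacZ it was -0.08 ± 0.13 (adjusted p = 0.907). Counting error would give a coefficient of variation of 2.86%, and the libraries showed 13.6%.

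The 2 libraries with the lowest Adk also stood at the ends of other measures. Epileptic sgKcna1 replicate 12 had the largest unmapped share, the fewest reads, and the highest summed oligodendrocyte, meningeal and endothelial markers (10885, 255 and 510 CPM). Epileptic sgLacZ replicate 4 had the smallest unmapped share, the most reads, and the highest summed thalamic and hippocampal principal neuron markers (408 and 6025 CPM). Their part in the Adk values was not tested. Without both libraries, an alternative chosen after seeing the data, 0 of 8 genes passed in each comparison, and the Adk log2 fold change in epileptic sgKcna1 against control sgLacZ was 0.02 in place of -0.08.

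Ada (ENSMUSG00000017697, chr2:163726571-163750239), adenosine deaminase, which turns adenosine into inosine, was close to the floor. The control sgLacZ libraries had 0.758, 0.957, 0.585, 0.133 and 0.943 CPM. The lowest, median and highest values were 0.488, 0.620 and 1.16 CPM in epileptic sgLacZ and 0.444, 0.747 and 1.00 CPM in epileptic sgKcna1. With 2 to 34 reads per library, a fold of 2.36 would have been needed to pass in the first comparison, so smaller changes of Ada were not detectable at this depth. The log2 fold changes were 0.05 ± 0.40, 0.04 ± 0.38 and 0.08 ± 0.40 for epileptic sgLacZ against control sgLacZ, epileptic sgKcna1 against epileptic sgLacZ, and epileptic sgKcna1 against control sgLacZ (adjusted p = 0.946, 0.960 and 0.969 by edgeR).

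Adora1 (ENSMUSG00000042429, chr1:134199215-134235457), the inhibitory A1 receptor, had the most reads of the 8 genes. CPM was 184, 204, 180, 207 and 210 in control sgLacZ. It ran from 156 through a median of 172 to 204 in epileptic sgLacZ and from 126 through 176 to 294 in epileptic sgKcna1. None of the 6 epileptic sgLacZ libraries exceeded the control median, yet the groups overlapped. The log2 fold change was -0.15 ± 0.15 (adjusted p = 0.511; 95% interval from -27.8% to 12.8%). It was 0.06 ± 0.15 for epileptic sgKcna1 against epileptic sgLacZ (adjusted p = 0.841) and -0.09 ± 0.15 against control sgLacZ (adjusted p = 0.903). The highest value belonged to epileptic sgKcna1 replicate 12. Without that library the log2 fold change against epileptic sgLacZ was -0.13, in the opposite direction and also not past the threshold.

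Adora2a (ENSMUSG00000020178, chr10:75316877-75334792), the receptor that raises cAMP and is concentrated in striatal neurons, had 2.06, 2.33, 1.92, 1.87 and 3.30 CPM in control sgLacZ. It had 2.09, 2.94 and 3.83 CPM as lowest, median and highest in epileptic sgLacZ and 1.22, 3.06 and 5.94 in epileptic sgKcna1. All 6 epileptic sgLacZ libraries lay above the control median of 2.06 CPM, and 5 of 6 epileptic sgKcna1 libraries did. The log2 fold change was 0.38 ± 0.31 for epileptic sgLacZ against control sgLacZ (adjusted p = 0.386), and 0.45 ± 0.31 when epileptic sgKcna1 was set against control sgLacZ (adjusted p = 0.782), the largest of the 8 in both comparisons and not past the threshold in either. The first interval ran from -16.5% to 103%. For epileptic sgKcna1 against epileptic sgLacZ the log2 fold change was 0.07 ± 0.29 (adjusted p = 0.900). Striatal spiny neurons are 1 cell type that could bring Adora2a RNA, and 9 of 10 of their markers were above 0 in every library. These markers summed to 161 to 221.5 CPM in control sgLacZ, 203 to 253 in epileptic sgLacZ and 198 to 316 in epileptic sgKcna1. In the first comparison 1 of the 9 tested passed, where 11.0% of all genes did. This was Pde10a, which rose (log2 fold change 0.58 ± 0.15, adjusted p = 0.0349). Of the 9, 6 had a positive and 3 a negative log2 fold change, the lowest being that of Tac1 (-0.75 ± 0.28, adjusted p = 0.0739). Their part in the Adora2a values was not tested.

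Adora3 (ENSMUSG00000000562, chr3:105904421-105908928), the A3 receptor, known in mouse brain mostly from microglia, had 0.974, 0.916, 1.34, 0.866 and 1.30 CPM in control sgLacZ. The lowest, median and highest CPM were 0.579, 0.909 and 1.72 in epileptic sgLacZ and 0.467, 1.16 and 1.72 in epileptic sgKcna1. Both extremes of the gene lay in the epileptic groups, with the controls inside their range. The log2 fold changes were -0.12 ± 0.33, 0.23 ± 0.32 and 0.11 ± 0.33 for epileptic sgLacZ against control sgLacZ, epileptic sgKcna1 against epileptic sgLacZ, and epileptic sgKcna1 against control sgLacZ (adjusted p = 0.824, 0.685 and 0.950 by edgeR). These rest on 5 to 46 reads per library, and a fold of 2.07 would have been needed in the first comparison. Microglia markers summed to 425 to 469 CPM in control sgLacZ, 366 to 611 in epileptic sgLacZ and 462 to 570 in epileptic sgKcna1, with all 10 of 10 above 0. In the first comparison 2 of 10 passed, in opposite directions, against 11.0% of all genes: Csf1r rose (log2 fold change 0.38 ± 0.10, adjusted p = 0.0356, but 0.09 and adjusted p = 0.469 with both strand counts added) and Siglech fell (-0.49 ± 0.14, adjusted p = 0.0414). Their part in the Adora3 values was not tested. The gene table gives the symbol Adora3 to another identifier, ENSMUSG00000074344, which had 0 to 6 reads per library and was removed by the filter on low counts. It had over 3 reads in 2 of 5, 1 of 6 and 2 of 6 libraries of the 3 groups and was not tested.

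Slc29a2 (ENSMUSG00000024891, chr19:5019057-5031972), the equilibrative transporter ENT2, came closest to a difference between the epileptic groups. CPM was 8.39, 6.70, 9.32, 10.8 and 13.1 in control sgLacZ. It ran from 6.79 through a median of 11.1 to 12.2 in epileptic sgLacZ and from 6.35 through 8.64 to 9.80 in epileptic sgKcna1. None of the 6 epileptic sgKcna1 libraries exceeded the epileptic sgLacZ median, and epileptic sgLacZ replicate 5 lay among them. The log2 fold change was -0.35 ± 0.17 for epileptic sgKcna1 against epileptic sgLacZ, with an edgeR p of 0.0590 before and 0.274 after adjustment and a 95% interval from -38.9% to 1.02%. It was 0.12 ± 0.18 for epileptic sgLacZ against control sgLacZ (adjusted p = 0.658), and -0.23 ± 0.18 when epileptic sgKcna1 was set against control sgLacZ (adjusted p = 0.806). Under 26 alternative fits the first value stayed between -0.44 and -0.16, with an adjusted p from 0.0736 to 0.860.

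Slc29a1 (ENSMUSG00000023942, chr17:45585200-45599618) encodes ENT1, the main equilibrative adenosine transporter. Its CPM was 14.0, 13.3, 11.4, 11.5 and 10.9 in control sgLacZ. It ran from 9.85 through a median of 13.1 to 16.6 in epileptic sgLacZ and from 9.78 through 12.1 to 18.8 in epileptic sgKcna1. The spread within each epileptic group covered the whole control range. The log2 fold change was 0.09 ± 0.16 for epileptic sgLacZ against control sgLacZ (adjusted p = 0.732), -0.03 ± 0.16 for epileptic sgKcna1 against epileptic sgLacZ (adjusted p = 0.934), and 0.06 ± 0.16 when epileptic sgKcna1 was set against control sgLacZ (adjusted p = 0.943). These values count reads of either strand, and a read that lies in 2 genes at once is then given to neither.

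That rule bore on 2 of the 8 genes. Adora1 overlaps Mybph, and Slc29a1 overlaps Gm17080 in an older annotation, both on the other strand. When the forward-strand and reverse-strand counts were added, which gives a shared read to both partners, the reads of Adora1 were 1.61 times and those of Slc29a1 1.51 times the either-strand counts, and the ratio ranged from 1.31 to 1.81 and from 1.02 to 1.90 between libraries. Outside the shared stretch Mybph had 0 to 10 reads per library and Gm17080 0 to 6. The share of reads lost to the overlap thus differed between libraries. For Slc29a1 the ratio ran from 1.16 to 1.51 in control sgLacZ and from 1.27 to 1.90 in epileptic sgLacZ. In epileptic sgKcna1 it ran from 1.02 to 1.81. The libraries were treated as unstranded, so a shared read cannot be assigned to either partner. With the strand counts added Gm17080 had 4 to 236 reads per library.

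With the strand counts added, Slc29a1 had 15.4, 14.0, 14.9, 15.8 and 13.1 CPM in control sgLacZ. It ran from 16.8 to 19.98 CPM in epileptic sgLacZ and from 14.6 to 19.7 CPM in epileptic sgKcna1. All 6 epileptic sgLacZ libraries lay above all 5 control libraries, which was the case, or the reverse, for 4.58% of 19308 genes with these counts. With the reads shared with Gm17080 included, the Slc29a1 count was then higher in epileptic sgLacZ than in control sgLacZ. Those shared reads cannot be assigned to either gene. The log2 fold change was 0.34 ± 0.10 (95% interval 0.13 to 0.55, edgeR adjusted p = 0.0390). The either-strand counts, which leave these shared reads out, gave 0.09 ± 0.16. With the strand counts added 14.2% of genes passed, and this fit was the only alternative among 26 in which any of the 8 genes passed. The call was kept in 4 of 6 other settings of the strand-added counts (adjusted p from 0.0156 to 0.0758) and in 8 of 17 fits with 1 library left out (adjusted p from 0.0194 to 0.0966), and the log2 fold change stayed between 0.29 and 0.36 in all of them. Those losing the call included each fit without a control library. In epileptic sgKcna1 against epileptic sgLacZ it was -0.09 ± 0.10 (adjusted p = 0.570), and against control sgLacZ 0.24 ± 0.10 (adjusted p = 0.665). Adora1 stayed below the threshold with the strand counts added, at a log2 fold change of -0.14 ± 0.11 in the first comparison (adjusted p = 0.377).

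**Figure D2:**
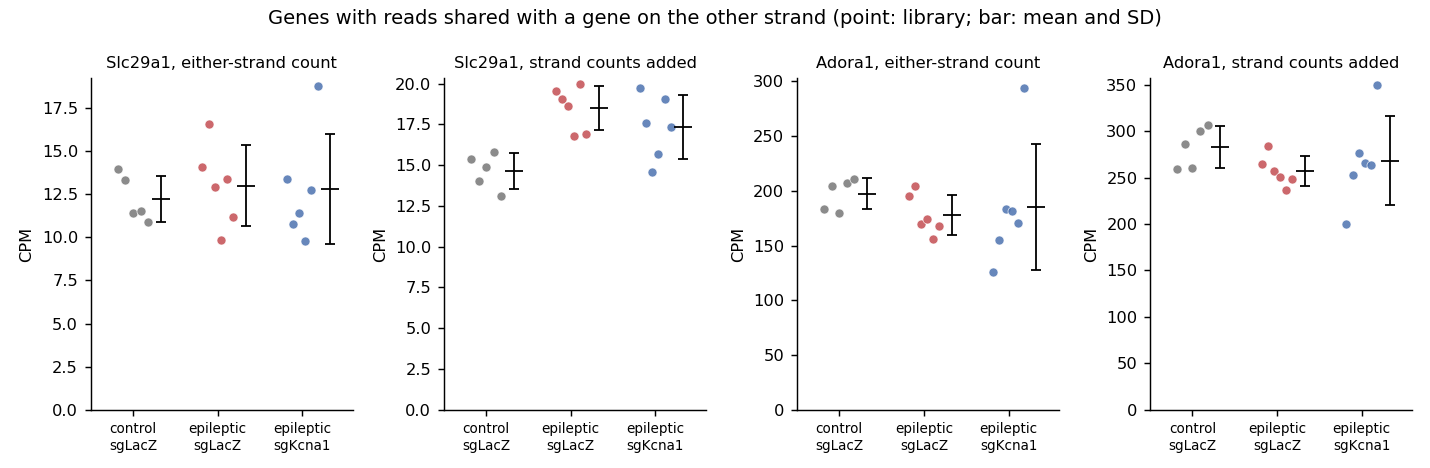
CPM of Slc29a1 and Adora1 (vertical axes, linear from 0) from the either-strand counts and from the sum of both strand counts, with 1 point per library (n = 5, 6 and 6) and the mean and SD beside them. Slc29a1 overlaps between epileptic sgLacZ and control sgLacZ in the either-strand counts and lies above the controls in all 6 epileptic sgLacZ libraries (16.8 to 19.98 against 13.1 to 15.8 CPM) with the strand counts added.

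Endothelial cells also hold Slc29a1 RNA, and their markers summed to 360 to 456 CPM in control sgLacZ, 339 to 483 in epileptic sgLacZ and 360 to 510 in epileptic sgKcna1, with all 10 of 10 markers above 0 in every library. In the first comparison 1 of 10 passed, against 11.0% of all genes. This was Vwf, which rose (log2 fold change 0.85 ± 0.25, adjusted p = 0.0414). Of the 10, 6 had a positive and 4 a negative log2 fold change, the lowest being that of Cldn5 (-0.54 ± 0.25, adjusted p = 0.135). Astrocytes, the main site of Adk, had summed markers of 3082 to 3440 CPM in control sgLacZ, 3232 to 3938 in epileptic sgLacZ and 3342 to 3738 in epileptic sgKcna1, all 10 of 10 above 0. In the first comparison, in which Adk did not pass, 2 of 10 rose and 0 fell, against 11.0% of all genes. These were Gfap (log2 fold change 0.60 ± 0.18, adjusted p = 0.0447) and Aldh1l1 (0.33 ± 0.09, adjusted p = 0.0391). Of the other 8, 5 had a positive and 3 a negative log2 fold change. The negative values of Sox9 (-0.82 ± 0.31, adjusted p = 0.0756) and S100b (-0.67 ± 0.24, adjusted p = 0.0656) were larger in size than both that passed, and that of Gjb6 was -0.02. Their part in the values of Slc29a1 and Adk was not tested, and in bulk tissue fewer cells of a type and less RNA per cell cannot be told apart.

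**Figure D3:**
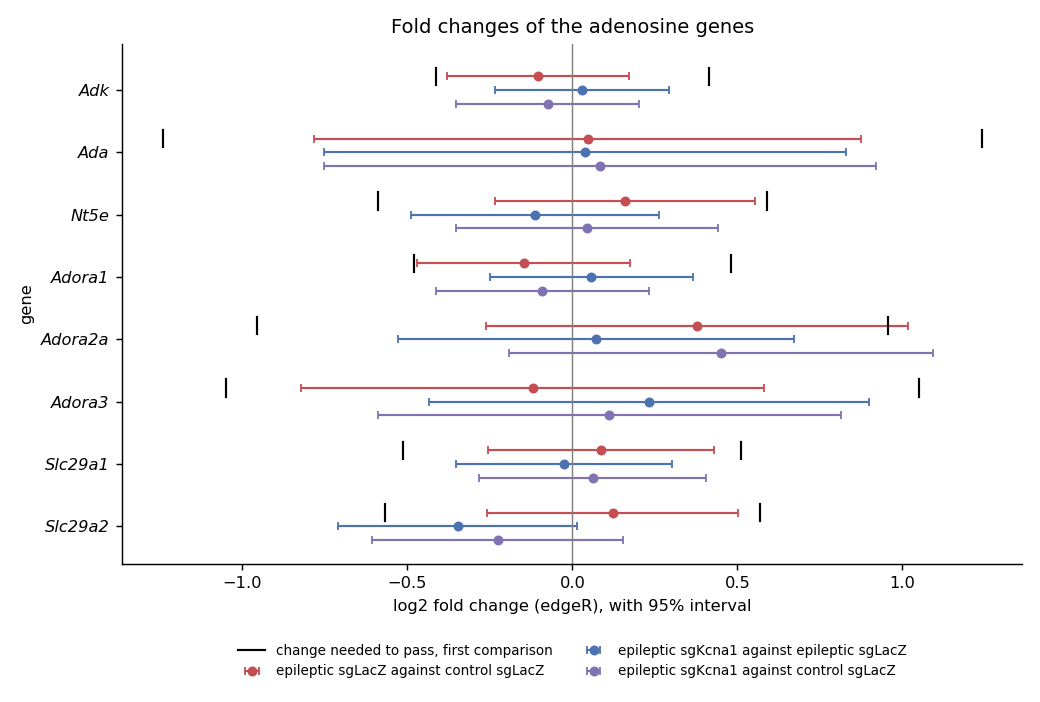
Log2 fold change (horizontal axis) of each adenosine gene in the 3 comparisons, as points with 95% intervals from the edgeR fit over 17 libraries. All intervals contain 0, and the black ticks mark the change that would have passed in epileptic sgLacZ against control sgLacZ, from 0.41 for Adk to 1.24 for Ada.

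Levels of different genes can be set side by side only per length, here as CPM per kb of exon. Adk (36.3 ± 4.94, SD, n = 17) and Adora1 (32.2 ± 6.11) stood above the transporters Slc29a2 (3.82 ± 0.831) and Slc29a1 (3.17 ± 0.583). Adora2a (1.12 ± 0.424) and Nt5e (0.899 ± 0.151) followed, and Adora3 (0.426 ± 0.140) and Ada (0.350 ± 0.125) were lowest. Within a library, Adora1 exceeded Slc29a2, Slc29a1 exceeded Adora2a, and Nt5e exceeded Adora3 in 17 of 17 libraries. Neighbours inside these steps did not keep their order: Adk exceeded Adora1 in 14 of 17, Slc29a2 exceeded Slc29a1 in 12, Adora2a exceeded Nt5e in 12 and Adora3 exceeded Ada in 13. The order of Adk and Adora1 and that of the transporters rest on the length and the counts used. The ratio of Adora1 to Adk was 0.926 ± 0.371 per exon length, and it was 1.46 with the strand counts added and 3.49 per coding length. The ratio of Slc29a1 to Slc29a2 was 0.887 ± 0.347 per exon length, 1.60 per longest transcript, 1.43 per coding length and 1.28 with the strand counts added, so Slc29a1 was the higher of the pair in 5, 16, 14 and 14 of 17 libraries. Adora3 exceeded Ada in 9 libraries per longest transcript and in 15 per coding length, and Nt5e exceeded Adora3 in 16 with either. Adora1 was above Adora2a and Adora3 in 17 of 17 libraries whichever of these was used, but by how much depended on it. Adora1 was 32.3 ± 12.7 times Adora2a per exon length, 51.8 times with the strand counts added and 92.7 times per coding length. It was 88.4 ± 55.1 times Adora3 per exon length, 138 times with the strand counts added and 198 times per coding length.

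**Figure D4:**
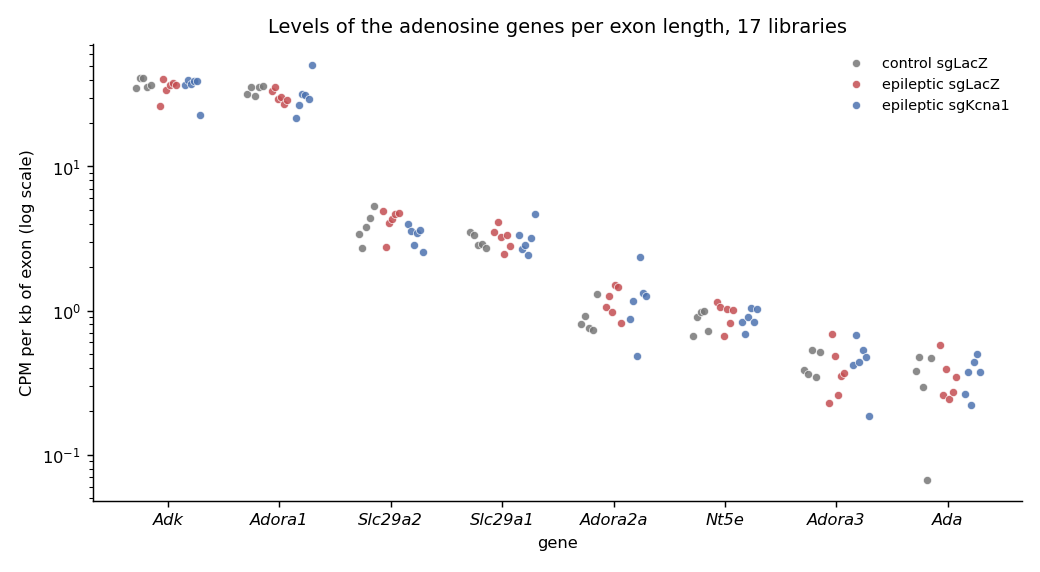
CPM per kb of exon (vertical axis, log scale) of each adenosine gene in 17 libraries, coloured by group, in order of their mean. Adk and Adora1 lie between 21.8 and 50.9 in every library, the transporters between 2.44 and 5.32, and the other 4 genes below 2.35.

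Related genes were counted from 5 lists, and the same threshold applied over all genes tested. Of the enzymes that break down nucleotides outside cells, 1 of 7 tested (9 listed) rose in epileptic sgLacZ against control sgLacZ and 0 fell. This was Entpd1, which encodes the ectonucleotidase CD39 (10.5 ± 1.33 CPM, n = 6, against 7.74 ± 0.414, n = 5; log2 fold change 0.44 ± 0.14, edgeR adjusted p = 0.0490). Entpd1 passed in 9 of 26 alternative fits. All 7 had a positive log2 fold change, with a median of 0.34. Over all genes tested the median was 0.02, slightly more of them being higher than lower. The median size of change over all genes, whatever its direction, was 0.31, so 0.34 was of ordinary size. CD39 makes the AMP on which the Nt5e product acts, and its epileptic sgLacZ and control values did not overlap (8.74 to 12.7 and 7.24 to 8.33 CPM).

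Of the enzymes that handle adenosine and AMP inside cells, 2 of 14 tested (17 listed) rose and 1 fell in that comparison. Xdh, xanthine oxidoreductase at the end of purine breakdown, rose from 1.80 ± 0.666 to 4.20 ± 1.198 CPM with no overlap between the groups (log2 fold change 1.24 ± 0.31, adjusted p = 0.0332). Ahcyl2, a relative of the enzyme that releases adenosine from S-adenosylhomocysteine, rose from 97.0 ± 9.32 to 164 ± 44.6 CPM (0.76 ± 0.24, adjusted p = 0.0488), but not with the strand counts added (0.33, adjusted p = 0.0871). Hprt, which salvages hypoxanthine and guanine, fell from 299 ± 33.3 to 200.1 ± 53.1 CPM (log2 fold change -0.58 ± 0.15, adjusted p = 0.0347). Of the other receptor and the other nucleoside transporters, 0 of 4 tested (6 listed) passed by edgeR. At an unadjusted p under 0.05 there were 2 of 4, against 34.7% of all genes. Closest were Slc29a4, a monoamine and adenosine transporter (40.1 ± 10.4 against 27.5 ± 3.76 CPM, log2 fold change 0.55 ± 0.18, adjusted p = 0.0539), and Slc29a3, an intracellular nucleoside transporter (9.85 ± 2.85 against 6.94 ± 1.12 CPM, 0.50 ± 0.20, adjusted p = 0.0888).

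Among G proteins, adenylyl cyclases and potassium channels that act downstream of adenosine receptors, 4 of 16 rose and 1 fell. Adcy9, an adenylyl cyclase, rose from 4.93 ± 1.12 to 26.5 ± 24.3 CPM (log2 fold change 2.43 ± 0.48, adjusted p = 0.0310), and Kcnj6, the GIRK2 channel subunit, rose from 3.35 ± 1.14 to 9.75 ± 5.87 CPM (1.54 ± 0.36, adjusted p = 0.0330). Epileptic sgLacZ replicate 4, the most deeply read library, had the highest Adcy9 at 71.4 CPM, where the next had 31.7. Without it the mean was 17.5 ± 11.7 CPM (SD, n = 5) and the log2 fold change 1.83 (adjusted p = 0.0643), past the threshold no longer. That fit called 0 genes over the whole table. The edgeR p of Adcy9 before adjustment was 8.4e-05 in it, against 6.8e-05 with all libraries. The same library had the highest Kcnj6, and without it Kcnj6 had a log2 fold change of 1.24 (adjusted p = 0.0789). Both genes kept their call with the strand counts added, at 2.41 (adjusted p = 0.0228) and 0.89 (adjusted p = 0.0401). Adcy3 (2.36 ± 0.68, adjusted p = 0.0404) and Gnas (0.54 ± 0.16, adjusted p = 0.0419) did not, at 0.20 (adjusted p = 0.190) and 0.18 (adjusted p = 0.313). Gnaq, the Gq alpha subunit, fell from 541 ± 55.8 to 334 ± 89.8 CPM (log2 fold change -0.70 ± 0.22, adjusted p = 0.0499). Among ATP release channels and P2 receptors, 1 of 14 tested (16 listed) rose and 0 fell. This was P2rx6, an ATP-gated channel subunit (4.72 ± 1.67 against 2.20 ± 0.350 CPM, 1.10 ± 0.29, adjusted p = 0.0347).

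Of the first 2 lists, 2 of 7 and 11 of 14 genes had an unadjusted p under 0.05 in the first comparison. Of the other 3, 2 of 4, 9 of 16 and 3 of 14 did, against 34.7% of all genes. The counts past the adjusted threshold stand beside 11.0% of all genes in the same comparison. They rest on the full set of libraries, since 7 of the 17 edgeR fits with 1 library left out called 0 genes over the whole table, with 4557 to 5793 genes at an unadjusted p under 0.05. The libraries whose omission did so were epileptic sgLacZ replicates 4, 7 and 9 and control sgLacZ replicates 13, 14, 16 and 23. Every called gene of the 5 lists lost its call in each of these fits. In epileptic sgKcna1 against epileptic sgLacZ and against control sgLacZ, 0 genes of the 5 lists passed by edgeR.

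**Figure D5:**
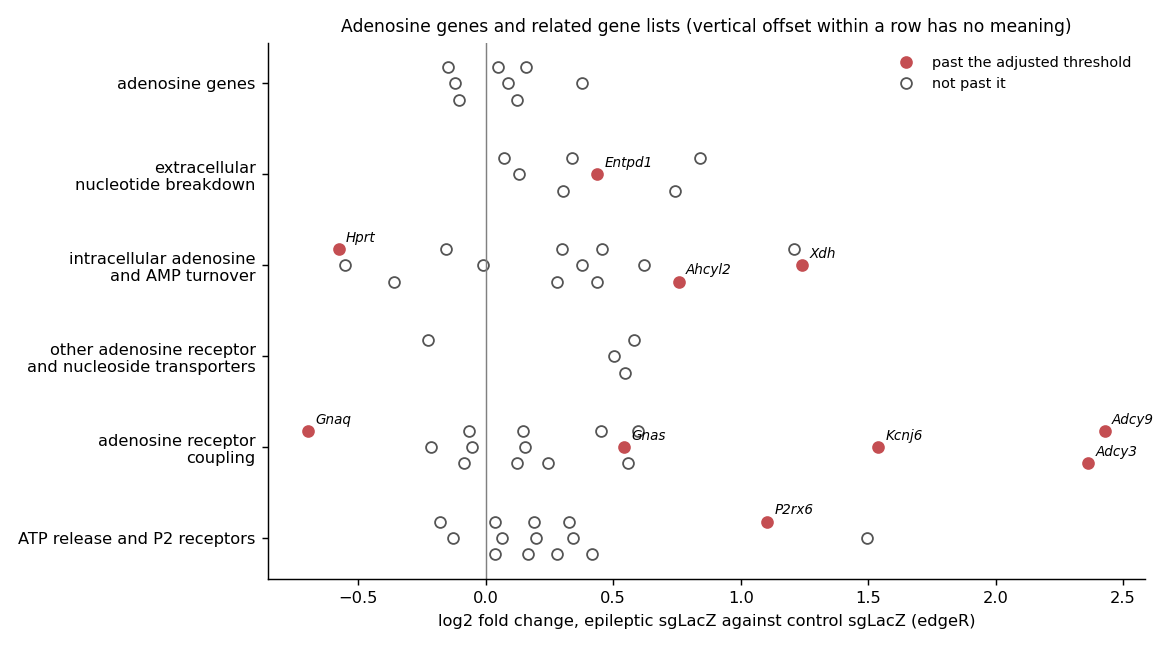
Log2 fold change in epileptic sgLacZ against control sgLacZ (horizontal axis) of the 8 adenosine genes and of 5 lists of related genes, 1 circle per gene tested, filled where the gene passed the adjusted threshold. None of the 8 adenosine genes is filled, and filled genes of the other lists run from -0.70 (Gnaq) to 2.43 (Adcy9).

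Genes whose levels moved most like each adenosine gene from library to library were sought as a description, by Pearson's r of log2 CPM with group means removed, over 17 libraries. All points share the libraries and their depth. For Adk they were Bag1 (r = 0.953), Gm10123 (r = 0.929) and Lix1 (r = 0.926), and without the 2 libraries of lowest Adk these were 0.722, 0.660 and 0.649. For Adora1 they were Cyfip1, Smad7 and Nrp1 (r = 0.919, 0.917 and 0.916), and without epileptic sgKcna1 replicates 12 and 1 they were 0.725, 0.667 and 0.733. For Slc29a2 the leading genes Tpp2, Abhd14b and Eefsec (r = 0.906, 0.897 and 0.893) kept an r of at least 0.888 without the 2 farthest libraries. For Slc29a1 they were Odz2, Gm9781 and Cox10 (r = 0.905, 0.901 and 0.891), and without the 2 farthest libraries 0.786, 0.790 and 0.763. For Adora3 they were Cops7b, Ppp2r3c and Higd2a (r = 0.905, 0.894 and 0.885), which kept an r of at least 0.850 without its 2 farthest libraries. For Adora2a they were Tes, Iqcg and Stk33 (r = 0.828, 0.778 and 0.776), and without epileptic sgKcna1 replicates 3 and 10 these fell to 0.477, 0.376 and 0.217, so the likeness rests on those libraries. Ada gave Zfp235, Myom1 and Zfp521 (r = 0.806, 0.800 and 0.774), with 0.644, 0.769 and 0.627 without its 2 farthest libraries. Nt5e gave Pcgf5, Gucy1a2 and Ctdsp2 (r = 0.718, 0.713 and 0.699), with 0.628, 0.538 and 0.594. Among the 8 genes themselves, the highest r was that of Adk and Adora3 (0.781, Spearman's rho 0.681), and it was 0.624 without epileptic sgKcna1 replicate 12. The lowest Pearson's r was that of Adk and Adora1 (-0.666), which rests on that same library, lowest for Adk and highest for Adora1. Without it r was -0.247, and Spearman's rho over all 17 libraries was -0.306.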

How the data were processed

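RNA-seq was done on hippocampi of adult mice, with 1 library for each of 17 samples, grouped by their labels. The authors aligned reads to mm10 with STAR 2.7 and deposited raw counts of reads per gene, without normalization, for either strand, for the forward strand and for the reverse strand. The annotation release is not given in the sources used here. The labels name an unstranded kit and the study's methods a stranded one, and reverse to forward reads stood at 0.994 to 0.998, so either-strand counts were used, as the rule for choosing the genes also asked. Reads inside 2 overlapping genes are then counted for neither. An alternative added both strand counts.

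Counts were fitted with edgeR 4.0.16 in R 4.3.3: filterByExpr by group (17615 genes), TMM scaling, a coefficient per group over all 17 libraries, two-sided quasi-likelihood tests and Benjamini-Hochberg adjustment over all genes tested, with a threshold of 0.05. Limma 3.58.1 stands for its voom method with quality weights, and DESeq2 1.42.0, used in the study, was an alternative. On simulated data for epileptic sgLacZ against control sgLacZ (17328 genes) the fit recovered 60% of changes of 1 and 92% of changes of 2 on the log2 scale. The simulation changed 200 genes and drew every count independently, without effects that many genes of a library share. These percentages need not hold for the real libraries. CPM values are TMM-scaled. Each SE is the size of the log2 fold change divided by the square root of edgeR's F statistic. The 95% intervals were made from it with the t distribution and are not edgeR output. The change needed to pass is the one that gives the largest p among genes called. Floors describe counting error and leave out PCR duplication. Over 40 pairs of libraries of the same group, chi-square per degree of freedom was at least 8.67, so no library was counted as a copy.

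Symbols were matched by Ensembl identifier to a gene table (32620 of 55450), and coordinates are those of GRCm38.p6 by symbol. Lengths are exon lengths of an mm9 annotation, from which no coordinate was taken. The 8 genes, the lists and the markers were chosen with earlier results of these data known. All 8 are named with their values. From each list the genes past the threshold are named, up to 4 per direction, or the 2 with the smallest p if none passed, and for each gene the 3 with the highest r of log2 CPM (prior count 2) among genes with a mean of at least 1 CPM. Markers are named with their list. A permutation test planned for genes removed by the filter was not run, since the only such identifier had too few reads.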

Additional observations from a re-analysis of the deposited data

Results flagged for a closer look

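For 24 sets of values (8 adenosine genes in 3 groups), the gap between the highest or lowest library and its nearest neighbour was divided by the range of the group and set against Dixon's 95% critical value, which chance exceeds in about 1 in 20 groups. It was exceeded in 2 sets, both through epileptic sgKcna1 replicate 12. This library had the lowest Adk of its group, 38.73 CPM where the other 5 had 62.9 to 68.2 (gap over range 0.82, critical value 0.625). It also had the highest Adora1, 294.2 CPM where the others had 126 to 184 (gap over range 0.658). It had the fewest reads in genes (11839240) and the largest unmapped share (41.5%) of the 17 libraries.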

How the results depend on the processing

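No paired analysis was possible because the groups share no replicate numbers. Over 9 alternative settings, the 24 log2 fold changes of the 8 genes gave 216 values, of which 199 kept their direction and their side of the threshold, 16 reversed and 1 passed the threshold; over the 17 fits with 1 library left out, 379 of 408 kept both and 29 reversed. All reversed values were not past the threshold, and their cause was not tested. The count of genes past the threshold in epileptic sgLacZ against control sgLacZ was 1 (Slc29a1, 0.336) with both strand counts added, where shared reads are given to both partners. In that comparison the reversed values with the unmapped share as covariate were -0.0516 for Ada, 0.0172 for Adora1 and -0.0454 for Slc29a2. There limma gave -0.00696 for Slc29a1, and Ada had -0.168 without both libraries at the ends of the unmapped share. In epileptic sgKcna1 against epileptic sgLacZ, sex as covariate gave -0.0363 for Adk and 0.0166 for Slc29a1, and Adora1 had -0.0280 by limma, -0.177 with the unmapped share as covariate and -0.0983 without both libraries. In epileptic sgKcna1 against control sgLacZ, limma and the omission of both libraries gave 0.0194 and 0.0188 for Adk, -0.0327 and -0.00276 for Nt5e, and -0.0577 and -0.0797 for Slc29a1. With 1 library left out, the ranges of results with a reversal were, for epileptic sgLacZ against control sgLacZ, -0.197 to 0.208 for Ada and -0.340 to 0.00118 for Adora3. For epileptic sgKcna1 against epileptic sgLacZ they were -0.0414 to 0.126 for Adk, -0.0835 to 0.249 for Ada, -0.127 to 0.150 for Adora1, -0.209 to 0.237 for Adora2a and -0.165 to 0.0551 for Slc29a1. For epileptic sgKcna1 against control sgLacZ they were -0.109 to 0.0162 for Adk, -0.161 to 0.245 for Ada, -0.279 to 0.000889 for Adora1, -0.0388 to 0.244 for Adora3, -0.0325 to 0.110 for Nt5e and -0.0821 to 0.127 for Slc29a1. With both strand counts added, the Slc29a1 value in epileptic sgLacZ against control sgLacZ was 0.336 with the unmapped share and 0.327 with sex as covariate, no longer past the threshold in either, and 0.298 to 0.362 with 1 library left out. Adora1 in epileptic sgKcna1 against epileptic sgLacZ then was -0.0608 with the unmapped share as covariate, -0.0225 without both libraries and -0.0350 to 0.133 with 1 library left out. The ratio of Adora1 to Adk was 3.49 per coding length and 1.46 with the strand counts added, those of Adora1 to Adora2a and Adora3 were 92.7 and 198 per coding length and 51.8 and 138 with the strand counts added, and that of Slc29a1 to Slc29a2 was 1.60 per longest transcript, 1.43 per coding length and 1.28 with the strand counts added. Over all genes, epileptic sgLacZ against control sgLacZ had 1940 calls by edgeR, 3439 by DESeq2, 7301 by limma, 3045 in a fit of the 2 groups, 516 with sex and 428 with the unmapped share as covariate, and 0 to 5526 with 1 library left out. Epileptic sgKcna1 against epileptic sgLacZ had 0 by edgeR, 114 by DESeq2 and 12 by limma, and epileptic sgKcna1 against control sgLacZ 0, 36 and 71. Counting error was largest for Ada, Adora3, Adora2a and Nt5e. For Adora2a it would give a coefficient of variation of 13.35% over the 17 libraries, where 37.8% was seen.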

Other observations

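With both strand counts added, some further genes of the related lists passed the threshold in epileptic sgLacZ against control sgLacZ, and they are named here after their values were seen. In that fit 14.2% of all genes passed. Adal, an adenosine deaminase-like enzyme, had a log2 fold change of 0.74 (edgeR adjusted p = 0.0380), against 0.62 (adjusted p = 0.0548) with the either-strand counts. Nt5c3, a cytosolic nucleotidase, had -0.37 (adjusted p = 0.0481), against -0.36 (adjusted p = 0.0545). Kcnj9, the GIRK3 channel subunit, had 0.61 (adjusted p = 0.0473), against 0.60 (adjusted p = 0.0532). Nt5c2, of the enzymes that handle adenosine and AMP inside cells, had 0.56 (adjusted p = 0.0347), against 0.38 (adjusted p = 0.0711). P2rx3, of the P2 receptors, had 2.304 (adjusted p = 0.0349), against 1.497 (adjusted p = 0.112), with 0 to 42 either-strand reads per library. Nt5c2 and P2rx3 moved more between the counts than Adal, Nt5c3 and Kcnj9.

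Enpp2, the nucleotide pyrophosphatase autotaxin, which choroid plexus makes in quantity, belongs to the enzymes of extracellular nucleotide breakdown and had 833 ± 471 CPM (SD, n = 5) in control sgLacZ, 1490 ± 453 (n = 6) in epileptic sgLacZ and 703 ± 486 (n = 6) in epileptic sgKcna1. It did not pass in any comparison (adjusted p = 0.224, 0.231 and 0.914 by edgeR). Choroid plexus markers, all 10 of 10 above 0 in every library, summed to 1219 to 12667 CPM, 4533 to 11604 CPM and 299 to 7927 CPM in these groups, and their part in the Enpp2 values was not tested.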
